A study of Mus musculus with 14 samples.

Results

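Peroxisomes are small organelles in which fatty acids and amino acids are oxidised, and the transcripts of 32 genes of peroxisome biogenesis and metabolism were followed in whole mouse kidneys. The genes were chosen by name, and a gene counted as found where its symbol stood in both deposited tables. All 32 were found, with 1 row in each table, among 23682 genes present in both, and all 32 passed the filter on low counts. They comprise 12 peroxins, the proteins that build the organelle, 18 enzymes and 2 transporters of its membrane family. The rule itself uses no measured value.

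The kidneys came from 14 mice in 3 groups, all given doxycycline in the drinking water. The first group was 5 i-TERTci mice injected with GSK2830371, which inhibits the phosphatase WIP1. The second was 5 i-TERTci mice injected with the vehicle DMSO. The i-TERTci mice carry the actin-rtTA+ and tetop-TERTci+ transgenes, each heterozygous, so that doxycycline switches on TERTci throughout the body. The controls were 4 mice with the actin-rtTA+ transgene alone, for which no injection is recorded. Injections were daily and intraperitoneal from about day 15, when urinary protein was above 10 mg/mL. The GSK2830371 mice had been on doxycycline for 31, 49, 49, 49 and 28 days, the DMSO mice for 29, 29, 29, 38 and 31 days and the controls for 30 days. Age, strain and sex are not in the labels. Nothing states that the mice of a group came from separate litters, so p-values measure the spread between these kidneys.

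A peroxisome imports its enzymes already folded. The receptors PEX5 and PEX7 bind a short signal on the enzyme in the cytosol, dock at PEX13 and PEX14, release the enzyme inside, and are then ubiquitinated by a ligase that includes PEX2 and PEX10 and pulled out by an ATPase that includes PEX6 and is anchored by PEX26. PEX3, PEX16 and PEX19 insert the membrane proteins, and PEX11 proteins elongate and divide the organelle. In the kidney, peroxisomes are abundant in proximal tubule cells, where they shorten very long and branched fatty acids, oxidise D-amino acids and hydroxy acids, and break down the hydrogen peroxide so made with catalase.

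Several facts of the libraries bear on every comparison with the controls. Reads in genes totalled 48.43 to 49.42 M in the GSK2830371 libraries, 47.19 to 48.85 M in the DMSO libraries and 48.47 to 64.58 M in the controls. Mitochondrial genes took 5.071% to 8.35% of reads with GSK2830371, 4.948% to 9.518% with DMSO and 14.45% to 24.18% in the controls. Reads for *Tert*, which the transgene encodes, ranged over 231 to 2546 in the GSK2830371 kidneys, 574 to 2732 in the DMSO kidneys and 117 to 183 in the control kidneys, so no i-TERTci library overlapped the controls. By reads of *Xist* and the Y-linked *Ddx3y*, 3 of 5 GSK2830371 libraries, 2 of 5 DMSO libraries and all 4 controls were Xist-positive, and the 3 Xist-positive GSK2830371 libraries were those at 49 days. The controls also have a block of library numbers to themselves, and no injection is recorded for them. Genotype, injection, that block and library make-up therefore cannot be told apart. Below, a change given with GSK2830371 or with DMSO is that group against the controls, not an effect of the compound alone.

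Normalised reads below are reads divided by the size factor of the library, listed in replicate order. To compare genes with each other, reads were also divided by the exon length in kilobases. On that per-length scale *Cat*, which encodes catalase, was the highest member in the control kidneys, at 23324 ± 4696 normalised reads per kb (SD, n = 4). The bifunctional enzyme gene *Ehhadh* followed at 12781 ± 2626, then the oxidase genes *Dao* at 11632 ± 2691 and *Hao2* at 11359 ± 2709, and the phytanoyl-CoA hydroxylase gene *Phyh* at 10106 ± 1419.9. Neighbours among these 4 differed by less than 1 SD, whereas *Cat* lay above *Ehhadh* by more than its own SD. The peroxins were lower per length, with *Pex19* highest at 1624 ± 223 and *Pex7* lowest at 151 ± 23.8. The lowest member of all was *Hacl1*, at 47.7 ± 20.5. In the GSK2830371 kidneys the order began with *Phyh* at 12280.1 ± 4185, *Scp2* at 10757 ± 3358, *Ehhadh* at 10608 ± 3966 and *Cat* at 10057 ± 2360.4 (SD, n = 5), which did not differ beyond their spread. In the DMSO kidneys *Phyh* also came first, at 13982 ± 6977, ahead of *Ehhadh* at 11727 ± 6844, *Scp2* at 10793 ± 2707 and *Cat* at 10301 ± 1902. All members together took 0.464% to 0.6432% of the reads with GSK2830371, 0.4428% to 0.6314% with DMSO and 0.4513% to 0.6253% in the controls.

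Peroxins moved in both directions in i-TERTci kidneys. *Pex2*, *Pex5* and *Pex7* rose, and *Pex6*, *Pex10*, *Pex14* and *Pex19* fell, with GSK2830371 and with DMSO, while *Pex11a* rose with DMSO. Thus 3 of the 12 peroxins were called higher and 4 lower for GSK2830371 against control, and 4 higher and 4 lower for DMSO against control, with the median log2 change at -0.03 and -0.02. Calls are adjusted p under 0.05 in limma's moderated test over all 18810 genes tested. Over all those genes, 24.3% were called higher and 22.1% lower for GSK2830371 against control, and 25.2% higher and 23.1% lower for DMSO against control, 46.3% and 48.3% in either direction. The median log2 change over all genes was 0.01 and 0.03. Both comparisons use the same 4 controls. The *Pex6* call did not hold after a correction for GC content.

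**Figure D1:**
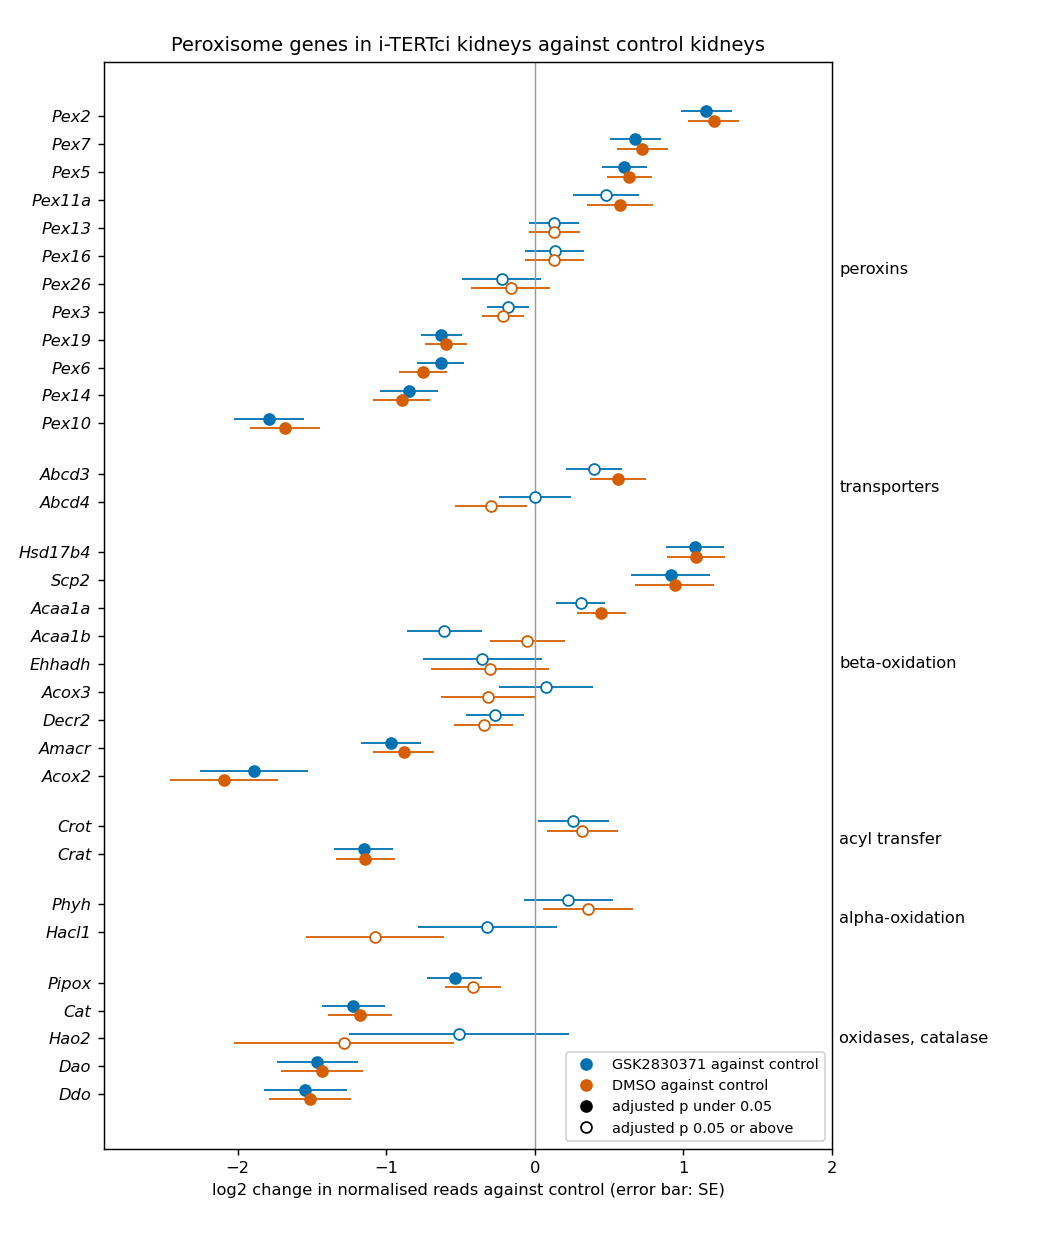
Log2 change in normalised reads against the 4 control kidneys for each of the 32 genes, grouped by role, with GSK2830371 above DMSO in each pair, error bars of 1 SE and filled points at an adjusted p under 0.05. Peroxins lie on both sides of 0, from 1.20 for *Pex2* to -1.79 for *Pex10*, and *Cat*, *Dao* and *Ddo* lie below -1 in both comparisons. *Hao2* has the longest error bars, and its GSK2830371 change went to 0.06 without GSK2830371 replicate 2.

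The import receptors rose. *Pex5*, whose product carries most matrix enzymes by their C-terminal signal, was higher in every i-TERTci kidney than in any control. *Pex5* had 4011, 3117, 3815, 3194 and 3146 normalised reads in the GSK2830371 kidneys, 3988, 3174, 3261, 4353 and 2997 in the DMSO kidneys, and 1869, 2415, 2506 and 2322 in the control kidneys. Against the controls, GSK2830371 gave a log2 change of 0.60 (SE 0.15, adjusted p = 0.00442) and DMSO one of 0.64 (SE 0.15, adjusted p = 0.00286). Among Xist-positive libraries alone the DMSO change was 0.45, adjusted p = 0.0753. *Pex7* had 3288, 2824, 3031, 2999 and 2410.0 normalised reads in the GSK2830371 kidneys, 4129, 3068, 2139, 3028 and 2933 in the DMSO kidneys, and 1629.7, 1749, 2252 and 1679.7 in the control kidneys. Its product carries enzymes with an N-terminal signal, thiolase and PHYH among them. For *Pex7* the log2 change came to 0.68 (SE 0.17, adjusted p = 0.00498) with GSK2830371 and to 0.72 (SE 0.17, adjusted p = 0.00294) with DMSO. With GSK2830371 no library overlapped the controls, whereas DMSO replicate 3 lay under the highest control, replicate 3. At 31 days or fewer on doxycycline the GSK2830371 change was 0.65, adjusted p = 0.0656, from 2 libraries.

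The RING-finger pair of the ubiquitin ligase went in opposite directions, and these were the peroxins with the smallest adjusted p. *Pex2* (ENSMUSG00000040374, chromosome 3, 5560188 to 5576239, - strand, GRCm38) rose. *Pex2* had 1980.2, 1808, 1651, 1820.3 and 1682 normalised reads in the GSK2830371 kidneys, 2366, 1615, 1766, 1903 and 1674 in the DMSO kidneys, and 657, 719.9, 1175 and 743 in the control kidneys. Every i-TERTci library lay above the highest control, which was replicate 3. With GSK2830371 the log2 change against control was 1.15 (SE 0.17, adjusted p = 8.34e-05), and with DMSO it was 1.20 (SE 0.17, adjusted p = 5.33e-05). *Pex10* (ENSMUSG00000029047, chromosome 4, 155067016 to 155072433, + strand) fell to under the lowest control in every i-TERTci library. *Pex10* had 309.9, 202, 525, 452 and 386 normalised reads in the GSK2830371 kidneys, 364, 354, 386, 353 and 469 in the DMSO kidneys, and 1432, 1315, 975 and 1257 in the control kidneys. The log2 change was -1.79 (SE 0.24, adjusted p = 3.3e-05) for GSK2830371 against control and -1.68 (SE 0.24, adjusted p = 4.86e-05) for DMSO against control. Both genes were called in each of the 25 alternative analyses of both comparisons.

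Of the docking pair, *Pex14* fell and *Pex13* was not called. *Pex14* had 2835, 2168, 2674, 1848 and 2375 normalised reads in the GSK2830371 kidneys, 2403, 2108, 2025, 3203 and 1857 in the DMSO kidneys, and 5088, 4684, 2998 and 4512 in the control kidneys. Against the controls, GSK2830371 gave a log2 change of -0.85 (SE 0.19, adjusted p = 0.00231) and DMSO one of -0.90 (SE 0.19, adjusted p = 0.00144). DMSO replicate 4 lay above the lowest control, replicate 3, so those groups overlapped, and the GSK2830371 libraries all lay under it. An antisense transcript, Gm17029, shares 1776 exonic bases with *Pex14* on the opposite strand. The strand setting of the counting is not given in the sources used here, so reads of the pair cannot be told apart. *Pex13* had a log2 change of 0.13 with GSK2830371 (SE 0.17, adjusted p = 0.552) and 0.13 with DMSO (SE 0.17, adjusted p = 0.544).

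*Pex6*, whose ATPase draws the receptors back out of the membrane, was lower in all i-TERTci kidneys. *Pex6* had 2537, 2122, 2957, 3099 and 1669 normalised reads in the GSK2830371 kidneys, 2268, 2383, 2145, 2193 and 2152 in the DMSO kidneys, and 3905, 3599.5, 3764 and 3750.3 in the control kidneys. For *Pex6* the log2 change came to -0.64 (SE 0.16, adjusted p = 0.00475) with GSK2830371 and to -0.75 (SE 0.16, adjusted p = 0.00137) with DMSO. Its transcript is rich in G and C, and after a GC correction the change was -0.01 (adjusted p = 0.972) with GSK2830371 and -0.09 (adjusted p = 0.72) with DMSO, so neither call remained. *Pex26*, which anchors that ATPase, had a log2 change of -0.22 with GSK2830371 (SE 0.27, adjusted p = 0.51) and -0.16 with DMSO (SE 0.27, adjusted p = 0.64). It ranged over 607 to 1235 in the GSK2830371 kidneys, 594 to 1343 in the DMSO kidneys and 955 to 1659 in the control kidneys. Replicate 1 was the lowest library by a wide gap in both i-TERTci groups.

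Among the genes for membrane insertion, *Pex19*, the cytosolic chaperone of peroxisomal membrane proteins, fell. *Pex19* had 4458, 3550.0, 4692, 3703 and 3630.1 normalised reads in the GSK2830371 kidneys, 4381, 4229.7, 4162, 3929 and 3661 in the DMSO kidneys, and 7309.6, 5628, 5442 and 6405 in the control kidneys. No i-TERTci library reached the lowest control. With GSK2830371 the log2 change against control was -0.63 (SE 0.14, adjusted p = 0.00185), and with DMSO it was -0.60 (SE 0.14, adjusted p = 0.00239). *Pex3* and *Pex16*, the membrane partners of that chaperone, were not called. *Pex3* had a log2 change of -0.18 with GSK2830371 (SE 0.14, adjusted p = 0.306) and -0.21 with DMSO (SE 0.14, adjusted p = 0.226), and *Pex16* of 0.13 with GSK2830371 (SE 0.20, adjusted p = 0.608) and 0.13 with DMSO (SE 0.20, adjusted p = 0.61). *Pex11a*, which promotes elongation and division of peroxisomes and is a PPAR-alpha target in mouse liver, was called with DMSO and not with GSK2830371. *Pex11a* had 2419, 3138, 2576, 3121 and 2674 normalised reads in the GSK2830371 kidneys, 3389, 2999, 2015, 4896 and 2274 in the DMSO kidneys, and 1567, 1978, 2549 and 1988 in the control kidneys. The log2 change was 0.48 (SE 0.22, adjusted p = 0.0885) for GSK2830371 against control and 0.57 (SE 0.22, adjusted p = 0.0425) for DMSO against control. The difference between GSK2830371 and DMSO was -0.10 (95% interval -0.54 to 0.35), so the 2 treatments were not shown to differ. The DMSO replicates 3 and 5 lay within the controls, and the DMSO call was lost without any 1 of DMSO replicates 1, 2 and 4 and control replicates 1, 2 and 4 (adjusted p from 0.0651 to 0.136). When each comparison was fitted on its own groups alone, *Pex11a* was called with GSK2830371 (0.48, adjusted p = 0.0256) and not with DMSO (0.57, adjusted p = 0.0742).

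**Figure D2:**
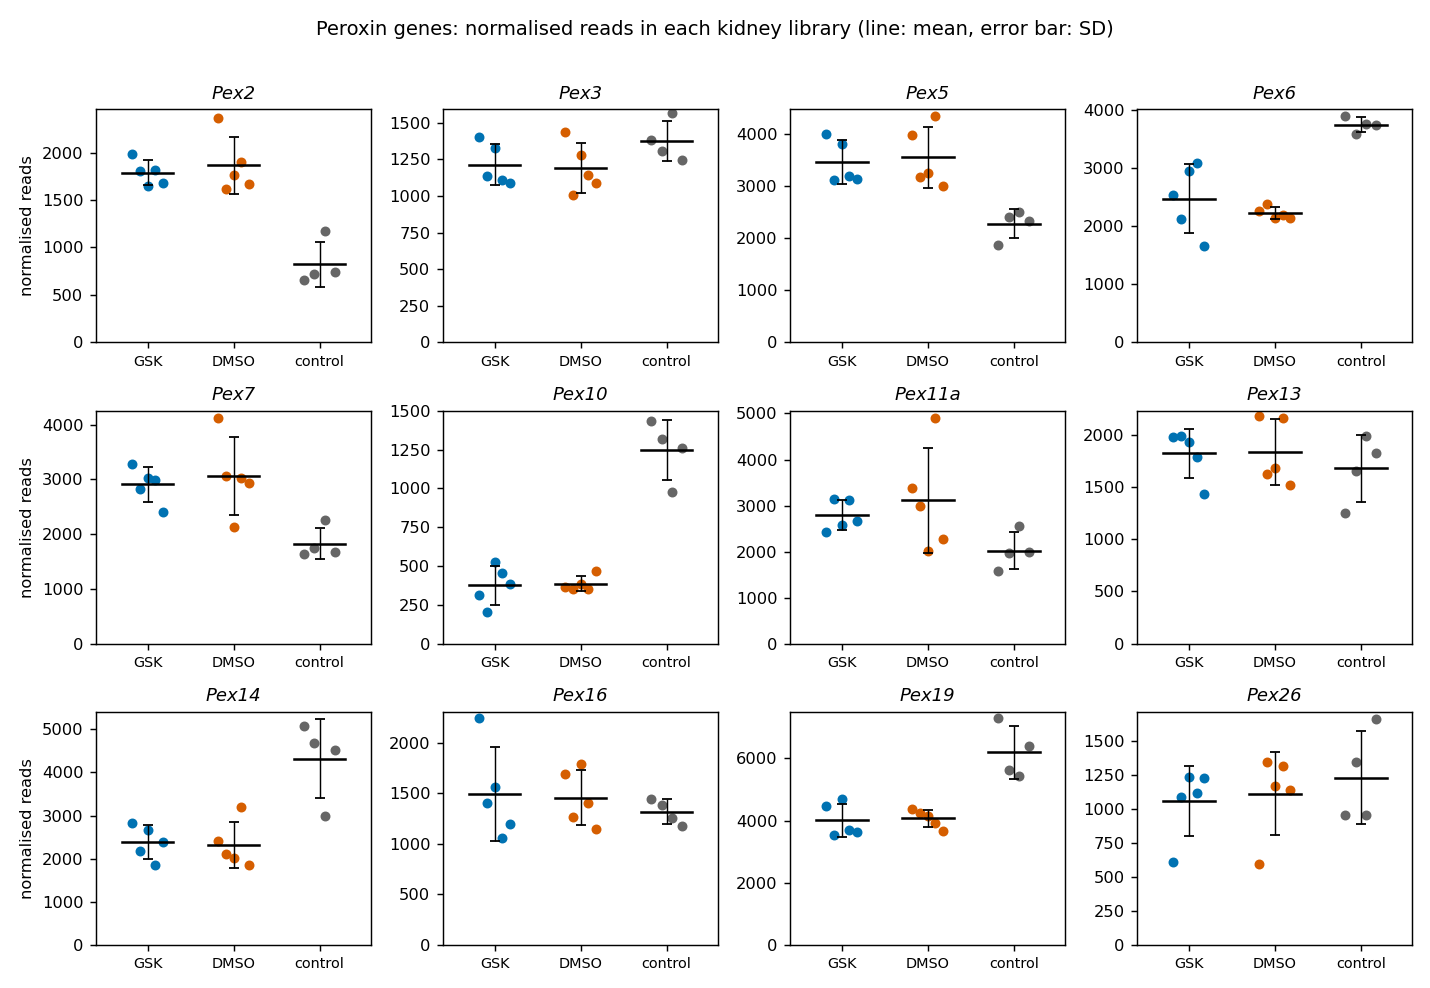
Normalised reads of the 12 peroxin genes in each library, for 5 GSK2830371, 5 DMSO and 4 control kidneys from left to right, with a line at the mean and an error bar of 1 SD. *Pex2* and *Pex5* are higher in every i-TERTci kidney than in any control, and *Pex6*, *Pex10* and *Pex19* are lower in every one.

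Enzymes also moved in both directions. With GSK2830371, 2 of the 18 enzymes rose and 7 fell against control (median log2 change -0.43), beside 24.3% of all genes called higher and 22.1% lower. With DMSO 3 rose and 6 fell (median -0.38), beside 25.2% and 23.1%. For both comparisons 9 enzymes were not called. Summed over the 18 enzymes, normalised reads ranged from 161599 to 273907 with GSK2830371, from 156713 to 296598 with DMSO and from 256906 to 309493 in the controls. The peroxin sums ranged from 22911 to 28072 with GSK2830371, from 22906 to 29882 with DMSO and from 27424 to 28568 in the controls. Both sums overlapped between the i-TERTci groups and the controls. Over all 32 members 16 were called for GSK2830371 against control (5 higher, 11 lower) and 18 for DMSO against control (8 higher, 10 lower), beside 46.3% and 48.3% of all genes tested. Calls were that common over the whole table, so the counts by themselves do not set these genes apart. The groups did not overlap in 15 members for GSK2830371 and 13 for DMSO, beside 40.3% and 38.8% of all genes. Fewer cells of a type and less RNA per cell cannot be told apart in whole kidney.

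Of the 5 genes for enzymes that make or remove hydrogen peroxide by other routes than beta-oxidation, 4 fell with GSK2830371 and 3 with DMSO, beside 22.1% and 23.1% of all genes called lower. The exceptions were *Hao2* in both comparisons and *Pipox* with DMSO. The median log2 change of the 5 was -1.22 with GSK2830371 and -1.28 with DMSO, of which the DMSO median is the value of *Hao2*, which rests largely on 1 library. *Cat* (ENSMUSG00000027187, chromosome 2, 103453849 to 103485160, - strand) encodes catalase, which splits hydrogen peroxide into water and oxygen. *Cat* had 34976, 21146, 28183, 27522 and 19571 normalised reads in the GSK2830371 kidneys, 31438, 27268, 21712, 32138 and 22032 in the DMSO kidneys, and 56402, 66812, 46217 and 74351 in the control kidneys. The highest i-TERTci library stayed under the lowest control. Against the controls, GSK2830371 gave a log2 change of -1.22 (SE 0.21, adjusted p = 0.000325) and DMSO one of -1.18 (SE 0.21, adjusted p = 0.000393). *Dao* (ENSMUSG00000042096, chromosome 5, 114003703 to 114025682, + strand) encodes D-amino-acid oxidase. *Dao* had 13802, 9836, 14333, 13692 and 9981 normalised reads in the GSK2830371 kidneys, 20011, 8697, 8010.1, 18070.0 and 11765 in the DMSO kidneys, and 39298, 34536, 23061 and 40457 in the control kidneys. The i-TERTci libraries all lay under the lowest control, replicate 3. For *Dao* the log2 change came to -1.46 (SE 0.27, adjusted p = 0.000548) with GSK2830371 and to -1.43 (SE 0.27, adjusted p = 0.000578) with DMSO. *Ddo* (ENSMUSG00000063428, chromosome 10, 40630011 to 40681847, + strand) encodes D-aspartate oxidase. *Ddo* had 667, 496, 889, 1614 and 683 normalised reads in the GSK2830371 kidneys, 849, 774, 540.4, 843 and 1212 in the DMSO kidneys, and 2412, 2125, 2369.7 and 2444 in the control kidneys. Controls were tightly grouped, and GSK2830371 replicate 4 came nearest to them. With GSK2830371 the log2 change against control was -1.55 (SE 0.28, adjusted p = 0.000421), and with DMSO it was -1.51 (SE 0.28, adjusted p = 0.000444).

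The other oxidases varied more between mice or changed less. *Pipox*, the pipecolic acid and sarcosine oxidase gene, had a log2 change of -0.54 with GSK2830371 (SE 0.19, adjusted p = 0.0273) and -0.42 with DMSO (SE 0.19, adjusted p = 0.0773). It ranged over 8009 to 13248 in the GSK2830371 kidneys, 8353 to 13895 in the DMSO kidneys and 11625 to 15873 in the control kidneys, and both i-TERTci groups overlapped the controls. The GSK2830371 call was lost without any 1 of GSK2830371 replicates 3 and 4 and control replicates 1, 2 and 4 (adjusted p from 0.0504 to 0.0754). *Hao2*, a hydroxy-acid oxidase gene, ranged over 3294 to 28217 in the GSK2830371 kidneys, 1658 to 23009 in the DMSO kidneys and 15275 to 27583 in the control kidneys, with DMSO replicate 3 and GSK2830371 replicate 2 far below their groups. Its log2 change of -0.51 with GSK2830371 (SE 0.74, adjusted p = 0.598) and -1.28 with DMSO (SE 0.74, adjusted p = 0.169) was not called. Without GSK2830371 replicate 2 the GSK2830371 value turned to 0.06 (adjusted p = 0.944), and without DMSO replicate 3 the DMSO value was -0.66 (adjusted p = 0.371).

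The promoter windows of *Cat*, *Dao* and *Ddo*, which fell together, are shown because each holds the half-site AGGTCA bound by nuclear receptors of the PPAR and RXR kind. The sequences are from RefSeq (GRCm38.p6), 250 bases before to 50 after the start, 5′ to 3′ on the strand of the gene, with half-sites in either orientation in capitals.
Cat, chr2:103485104-103485403, - strand: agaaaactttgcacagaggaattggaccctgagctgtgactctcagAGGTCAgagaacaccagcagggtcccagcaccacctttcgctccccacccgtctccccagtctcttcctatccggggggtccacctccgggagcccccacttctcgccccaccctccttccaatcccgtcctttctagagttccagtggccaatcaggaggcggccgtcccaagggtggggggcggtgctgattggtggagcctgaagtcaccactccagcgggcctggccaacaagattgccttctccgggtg
Dao, chr5:114003634-114003933, + strand: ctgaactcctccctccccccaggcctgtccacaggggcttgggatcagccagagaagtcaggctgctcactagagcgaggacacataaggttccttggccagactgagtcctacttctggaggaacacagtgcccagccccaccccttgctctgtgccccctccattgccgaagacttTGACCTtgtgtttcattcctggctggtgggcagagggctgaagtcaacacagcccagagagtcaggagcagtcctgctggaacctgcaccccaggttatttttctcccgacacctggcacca
Ddo, chr10:40629761-40630060, + strand: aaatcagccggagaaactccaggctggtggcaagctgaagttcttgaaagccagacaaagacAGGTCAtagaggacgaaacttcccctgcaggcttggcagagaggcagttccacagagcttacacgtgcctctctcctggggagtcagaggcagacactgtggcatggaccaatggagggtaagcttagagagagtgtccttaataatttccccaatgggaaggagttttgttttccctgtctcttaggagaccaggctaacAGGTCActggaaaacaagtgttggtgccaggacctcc
The start of the *Cat* window lay 7 bases, that of *Dao* 181 bases and that of *Ddo* 0 bases inside the gene as GENCODE annotates it. *Dao* has 3 windows in RefSeq, of which 1, the one shown, holds the half-site. The half-site, searched on both strands, was found in 5 of the 26 members with a window, these 3, *Phyh* and *Scp2*, and in 18.1% of 27025 genes. The *Scp2* window belongs to a start 26451 bases inside the annotated gene and is not shown. *Scp2* rose against the controls, and *Phyh*, whose window is not shown either, was not called. The direct repeat AGGTCANAGGTCA, in which the second copy follows after 1 base, was in none of the 26 and in 0.0481% of all genes. With a looser form, AGGNCANAGGNCA, the counts were 0 of 26 and 0.451%. A genomic match is a description of these letters, and the window is short. Any part of the half-site in the changes of these genes was not tested.

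Fatty acid beta-oxidation in peroxisomes runs through an oxidase, a bifunctional enzyme and a thiolase, and genes of these steps did not move together. Of the 9 members, 2 rose and 2 fell with GSK2830371, and 3 rose and 2 fell with DMSO. Over all genes, 24.3% were called higher and 22.1% lower with GSK2830371, and 25.2% and 23.1% with DMSO. The counts by themselves therefore do not set these 9 genes apart. The branched-chain oxidase gene *Acox2* (ENSMUSG00000021751, chromosome 14, 8225511 to 8259353, - strand), which acts on bile acid intermediates, had the most negative log2 change of the members in both comparisons. *Acox2* had 2489.7, 1687, 6799, 3014 and 1599.7 normalised reads in the GSK2830371 kidneys, 1329, 3441, 2957, 2195 and 2299.9 in the DMSO kidneys, and 7925, 12042, 9945 and 10251 in the control kidneys. GSK2830371 replicate 3 was the highest i-TERTci library and still lay under every control. The log2 change was -1.89 (SE 0.36, adjusted p = 0.000759) for GSK2830371 against control and -2.09 (SE 0.36, adjusted p = 0.000319) for DMSO against control. *Acox3*, the gene of another branched-chain oxidase, ranged over 5290.2 to 16863 in the GSK2830371 kidneys, 5257 to 9221 in the DMSO kidneys and 8043 to 11022 in the control kidneys. It had a log2 change of 0.08 with GSK2830371 (SE 0.32, adjusted p = 0.858) and -0.32 with DMSO (SE 0.32, adjusted p = 0.424).

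Of the bifunctional enzymes, *Hsd17b4*, which serves branched and very long chains, rose in every i-TERTci kidney. *Hsd17b4* had 16371, 15839, 15076, 11084 and 11177 normalised reads in the GSK2830371 kidneys, 18484, 14018, 12427, 14856 and 10166 in the DMSO kidneys, and 5153, 6500.4, 7572 and 6954 in the control kidneys. The lowest i-TERTci library lay above the highest control. Against the controls, GSK2830371 gave a log2 change of 1.08 (SE 0.20, adjusted p = 0.00042) and DMSO one of 1.08 (SE 0.20, adjusted p = 0.000375). *Ehhadh*, the bifunctional enzyme of the straight-chain route and a PPAR-alpha target in mouse liver, was not called. *Ehhadh* had 39684, 34876, 43253, 26669 and 13629 normalised reads in the GSK2830371 kidneys, 54642, 20958, 22764, 59560.2 and 16862 in the DMSO kidneys, and 36291, 28356, 46943 and 40813 in the control kidneys. The DMSO libraries split widely, with replicates 1 and 4 above every control and replicates 2, 3 and 5 under every control. Its log2 change was -0.35 with GSK2830371 (SE 0.40, adjusted p = 0.487) and -0.30 with DMSO (SE 0.40, adjusted p = 0.556). Among Xist-positive libraries, of which DMSO has replicates 2 and 5, the DMSO change was -0.99, adjusted p = 0.0186.

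Among the thiolases and their partners, *Scp2*, whose product is a thiolase of branched chains and a lipid carrier, rose, and ranged over 23252 to 48899.7 in the GSK2830371 kidneys, 23230.3 to 48855 in the DMSO kidneys and 16437 to 26421 in the control kidneys. The log2 change was 0.91 with GSK2830371 (SE 0.27, adjusted p = 0.0107) and 0.94 with DMSO (SE 0.27, adjusted p = 0.00859). Both i-TERTci groups overlapped the controls because control replicate 3 was high and DMSO replicate 3 and GSK2830371 replicate 5 were low. At 31 days or fewer the GSK2830371 change was 0.77, adjusted p = 0.104. *Acaa1a* ranged over 3885 to 4465 in the GSK2830371 kidneys, 3813 to 7308 in the DMSO kidneys and 3351 to 3630.2 in the control kidneys, with DMSO replicate 1 far above the rest, and its log2 change was 0.31 with GSK2830371 (SE 0.17, adjusted p = 0.136) and 0.45 with DMSO (SE 0.17, adjusted p = 0.0348). Without that library the DMSO value was 0.29, adjusted p = 0.0645, and the call was lost without any 1 of DMSO replicates 1 and 4 and control replicates 1, 2, 3 and 4 (adjusted p from 0.0528 to 0.0792). Even so, every i-TERTci library lay above the highest control for *Acaa1a*. Its exons share 290 bases with *Myd88* on the opposite strand, and with the strand setting not given, reads of those bases cannot be told apart. After a GC correction *Acaa1a* had 0.61 (adjusted p = 0.0119) with GSK2830371 and 0.75 (adjusted p = 0.00313) with DMSO, and so was called in both. Its paralog *Acaa1b* had a log2 change of -0.61 with GSK2830371 (SE 0.25, adjusted p = 0.0577) and -0.05 with DMSO (SE 0.25, adjusted p = 0.88), and was called with GSK2830371 in 6 of 25 alternative analyses. The copies are near identical in sequence, and the authors' counting could have split reads between them.

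The racemase gene *Amacr*, which converts branched chains and bile acid intermediates to the form that beta-oxidation accepts, fell. *Amacr* had 2256, 1452, 2743, 2411 and 1764 normalised reads in the GSK2830371 kidneys, 2673, 2149, 1433, 2282 and 2741 in the DMSO kidneys, and 3921, 4357, 3923 and 4041 in the control kidneys. All i-TERTci libraries lay under the controls, which were tightly grouped. For *Amacr* the log2 change came to -0.97 (SE 0.20, adjusted p = 0.00135) with GSK2830371 and to -0.88 (SE 0.20, adjusted p = 0.00237) with DMSO. The dienoyl-CoA reductase gene *Decr2*, needed for unsaturated chains, had a log2 change of -0.27 with GSK2830371 (SE 0.20, adjusted p = 0.277) and -0.34 with DMSO (SE 0.20, adjusted p = 0.162).

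Acyl groups leave the peroxisome as carnitine esters, and the transferase genes for medium and short chains differed. *Crat*, for short chains, fell in every i-TERTci kidney to under the lowest control. *Crat* had 5494, 5343, 6905, 7007 and 4283 normalised reads in the GSK2830371 kidneys, 6833, 5045, 4208, 7549.9 and 5761 in the DMSO kidneys, and 11354, 14087, 10671 and 15259 in the control kidneys. With GSK2830371 the log2 change against control was -1.15 (SE 0.20, adjusted p = 0.000296), and with DMSO it was -1.14 (SE 0.20, adjusted p = 0.000285). Exons of *Crat* share 59 bases with *Dolpp1* and 411 with Gm16323, both on the opposite strand, and reads of those bases cannot be told apart. *Crot*, for medium chains, had a log2 change of 0.26 with GSK2830371 (SE 0.24, adjusted p = 0.394) and 0.32 with DMSO (SE 0.24, adjusted p = 0.283), and its groups overlapped. In alpha-oxidation, which removes 1 carbon from phytanic acid, neither member was called. *Phyh* ranged over 15562 to 34150.0 in the GSK2830371 kidneys, 16110.0 to 48550.5 in the DMSO kidneys and 16708 to 22222 in the control kidneys, with DMSO replicate 1 highest, and its log2 change was 0.23 with GSK2830371 (SE 0.30, adjusted p = 0.56) and 0.36 with DMSO (SE 0.30, adjusted p = 0.343). *Hacl1*, the hydroxyacyl-CoA lyase gene, had a log2 change of -0.32 with GSK2830371 (SE 0.47, adjusted p = 0.598) and -1.08 with DMSO (SE 0.47, adjusted p = 0.0679). Without DMSO replicate 2 its DMSO value was -1.35, adjusted p = 0.0237. A gene model on the same strand, Gm49387, shares 1540 exonic bases with *Hacl1*, so its reads may be assigned to either.

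Of the transporters, *Abcd3*, which brings branched-chain and bile acid CoA esters into the organelle, was higher with DMSO. It ranged over 10270.2 to 15249 in the GSK2830371 kidneys, 11591 to 18769 in the DMSO kidneys and 7895 to 12029 in the control kidneys, so both groups overlapped the controls, and its log2 change was 0.40 with GSK2830371 (SE 0.19, adjusted p = 0.0909) and 0.56 with DMSO (SE 0.19, adjusted p = 0.0218). Its DMSO call did not hold without any 1 of DMSO replicate 4 and control replicates 1 and 2 (adjusted p from 0.0536 to 0.0771), nor after a GC correction (0.32, adjusted p = 0.161). *Abcd4*, of the same family but known for cobalamin export from lysosomes, had a log2 change of -0.00057 with GSK2830371 (SE 0.24, adjusted p = 0.999) and -0.30 with DMSO (SE 0.24, adjusted p = 0.33).

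**Figure D3:**
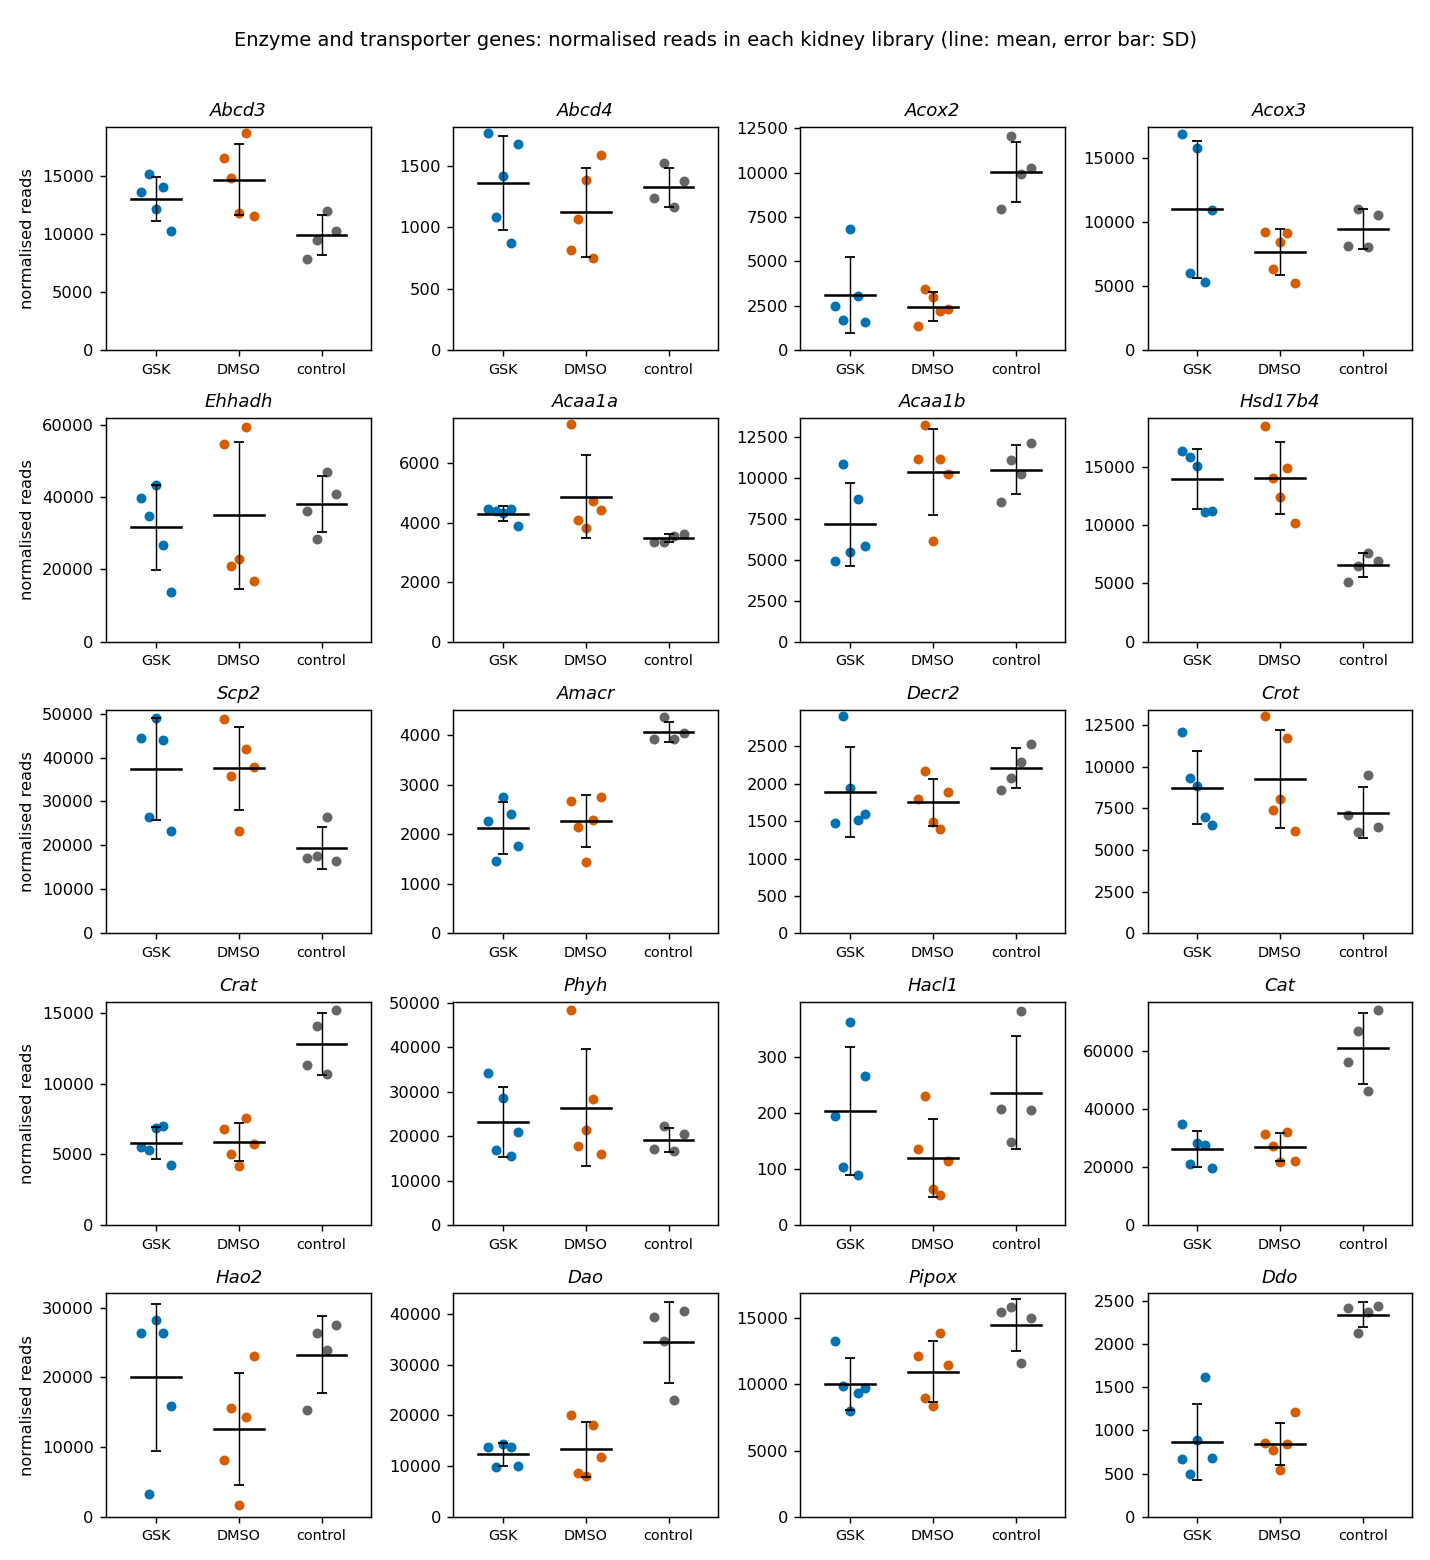
Normalised reads of the 18 enzyme and 2 transporter genes in each library, for 5 GSK2830371, 5 DMSO and 4 control kidneys from left to right, with a line at the mean and an error bar of 1 SD. *Cat*, *Dao*, *Ddo*, *Acox2*, *Amacr* and *Crat* are lower in every i-TERTci kidney than in any control. *Hsd17b4* and *Acaa1a* are higher in every one, and *Ehhadh* splits within the DMSO group.

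No member was called between GSK2830371 and DMSO kidneys. By limma 0 of 32 members and 0% of all genes tested were called, with 4.25% of genes and 1 member, *Acaa1b*, at an unadjusted p under 0.05. The edgeR quasi-likelihood test called 0 members, and so did DESeq2. The smallest adjusted p among the members was 0.994, and every member overlapped between these groups, beside 0.484% of all genes that did not. The peroxins were close to 0, with log2 changes from -0.10 for *Pex10* to 0.12 for *Pex6*. Their 95% intervals reached from -0.60 at the lower end to 0.47 at the upper end, both for *Pex26*. For *Cat* the change was -0.05 (95% interval -0.47 to 0.38), for *Dao* -0.03 (-0.58 to 0.52), and for *Hsd17b4* -0.0012 (-0.39 to 0.39). The widest intervals belonged to *Hao2*, at 0.77 (-0.73 to 2.28), and *Hacl1*, at 0.76 (-0.18 to 1.69), which hold differences of more than 1 log2 unit. *Acaa1b* had 4890.3, 10846, 5492, 8717 and 5817 normalised reads in the GSK2830371 kidneys, 11139, 13185, 6112, 11140.5 and 10190.1 in the DMSO kidneys, and 8536, 11072, 10239.8 and 12108 in the control kidneys. The log2 change of *Acaa1b* between the treatments was -0.56 (95% interval -1.06 to -0.05, adjusted p = 0.994), with the interval not adjusted for the number of genes. These groups also differ in days on doxycycline, which cannot be told apart from treatment for the 3 libraries at 49 days.

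**Figure D4:**
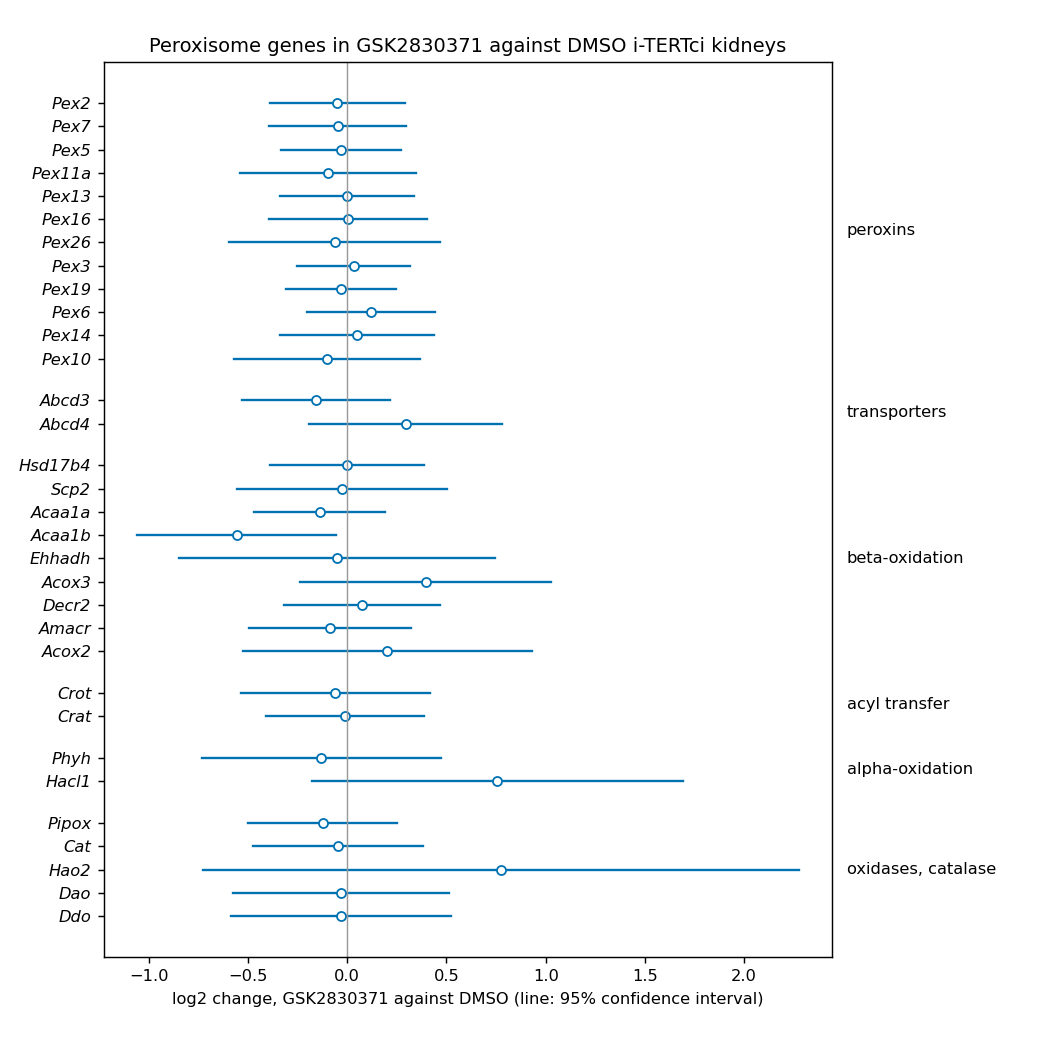
Log2 change of each of the 32 genes for 5 GSK2830371 against 5 DMSO i-TERTci kidneys, with unadjusted 95% confidence intervals as lines and open points because none was called. Peroxin points lie between -0.10 and 0.12, and *Hao2* and *Hacl1* have the widest intervals.

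Log2 changes against the controls varied with the GC content of the transcript over all genes. Among the 2202 genes at or under 42% GC the median was 0.399 for GSK2830371 against control and 0.461 for DMSO against control, and among the 1689 genes above 58% GC it was -0.514 and -0.553. Between GSK2830371 and DMSO the medians by class stayed between -0.0436 and 0.0382. Among the members, GC content ran from 38.5% in *Pex3* to 63% in *Pex6*. With the trend removed in each library, a step chosen after seeing the data, 18 members were called for GSK2830371 against control, 7 higher and 11 lower, beside 42.5% of all genes, and 15 of the 18 were called without it. *Pex6* was lost, and *Pex3*, *Pex16* and *Acaa1a* were gained. For DMSO against control 18 members were called, 8 higher and 10 lower, beside 44.1% of all genes, and 16 of these were called without it. *Pex6* and *Abcd3* were lost, and *Pex3* and *Pex16* were gained. *Pex3* then had -0.54 (adjusted p = 0.00637) with GSK2830371 and -0.62 (adjusted p = 0.00246) with DMSO, and *Pex16* had 0.69 (adjusted p = 0.013) with GSK2830371 and 0.72 (adjusted p = 0.01) with DMSO. Directions of the called genes did not change, and *Pex10*, *Pex2*, *Acox2*, *Cat*, *Dao* and *Ddo* remained called, with *Pex10* at -1.46 (adjusted p = 0.000212) and -1.36 (adjusted p = 0.000355). Peroxins were then called 4 higher and 4 lower with GSK2830371 and 5 higher and 4 lower with DMSO.

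**Figure D5:**
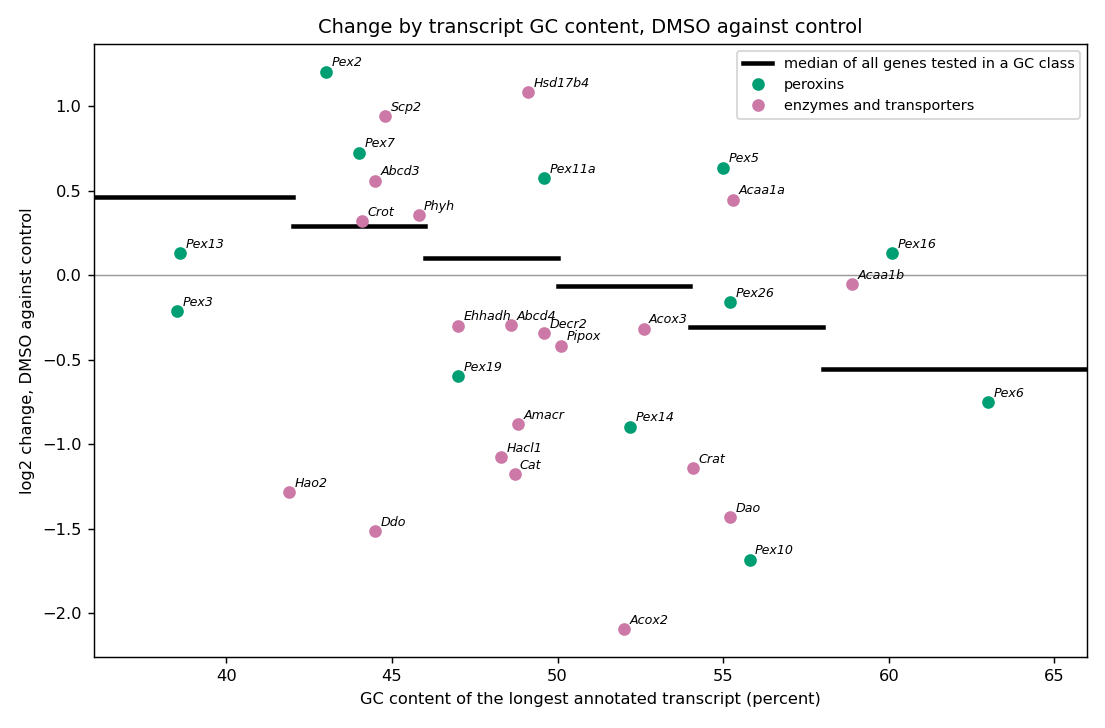
Log2 change for DMSO against control of the 32 genes by GC content of the longest annotated transcript, with horizontal lines at the median of all tested genes in each GC class (0.461 at or under 42% and -0.553 above 58%; the outer classes are drawn only to the edges of the plot). *Pex6*, at 63% GC, lies near the median of its class. *Pex10*, *Acox2*, *Dao*, *Ddo*, *Cat*, *Hao2* and *Hacl1* lie more than 1 log2 unit under theirs, and of these *Hao2* and *Hacl1* were not called.

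Markers of several cell types of the kidney moved with these results. Of 18 marker genes of proximal tubule, the segment richest in peroxisomes, none rose, 12 fell with GSK2830371 and 11 fell with DMSO, beside 22.1% and 23.1% of all genes called lower, and none was at 0 in a whole group. Their summed normalised reads were 283700 to 989500 with GSK2830371, 410700 to 1790000 with DMSO and 1844000 to 2929000 in the controls. Without *Kap*, an androgen-dependent kidney gene, the sums were 261800 to 640800 with GSK2830371, 272500 to 701300 with DMSO and 996200 to 1658000 in the controls. Of 9 genes for injured tubule, 6 rose and 1, *Havcr1*, fell in either comparison. Their sums were 392400 to 1237000 with GSK2830371, 198200 to 1120000 with DMSO and 64670 to 78240 in the controls. Markers of other segments fell as well. In both comparisons 4 of 5 distal tubule, 4 of 6 principal cell, 5 of 5 urothelium and 2 of 6 podocyte genes fell and none of them rose, and of 6 intercalated cell genes 4 fell with GSK2830371 and 5 with DMSO. Of 5 loop of Henle genes 1 rose and none fell. Of 8 neutrophil genes 7 rose in both comparisons, with sums of 476.3 to 16500 with GSK2830371, 748 to 25000 with DMSO and 131.7 to 225.4 in the controls, where *Mpo* and *Ly6g* were at 0. Of 7 macrophage genes 3 rose in both comparisons, and 1, *Csf1r*, fell with DMSO. Of 6 endothelium genes 1 rose and 3 fell in both comparisons. Over all genes, 24.3% were called higher with GSK2830371 and 25.2% with DMSO. The part of these lists in the changes of the members was not tested.

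Other genes of the peroxisome moved in both directions. Of 42 further genes tested, 5 rose and 13 fell with GSK2830371 (median log2 change -0.20), and 6 rose and 11 fell with DMSO (median -0.21). Over all genes, 24.3% were called higher and 22.1% lower with GSK2830371, and 25.2% and 23.1% with DMSO. In either direction 18 and 17 of the 42 were called, beside 46.3% and 48.3% of all genes. These counts by themselves do not set the 42 apart. *Acbd5*, a tether between peroxisome and endoplasmic reticulum, had a log2 change of 1.01 with GSK2830371 (SE 0.18, adjusted p = 0.000386) and 0.997 with DMSO (SE 0.18, adjusted p = 0.000394), and the enoyl-CoA isomerase gene *Eci2* had 0.69 with GSK2830371 (SE 0.22, adjusted p = 0.0182) and 0.89 with DMSO (SE 0.22, adjusted p = 0.00382). *Xdh*, the xanthine dehydrogenase gene, had 1.14 with GSK2830371 (SE 0.37, adjusted p = 0.02) and 1.24 with DMSO (SE 0.37, adjusted p = 0.0124). Lower were *Baat*, which conjugates bile acids to amino acids, at -2.75 with GSK2830371 (SE 0.50, adjusted p = 0.000445) and -2.98 with DMSO (SE 0.50, adjusted p = 0.00022), and *Tysnd1*, a protease that processes imported enzymes, at -1.10 with GSK2830371 (SE 0.20, adjusted p = 0.000471) and -1.11 with DMSO (SE 0.20, adjusted p = 0.000407). *Ppara*, the nuclear receptor that induces many of these genes in liver, had a log2 change of 1.28 with GSK2830371 (SE 0.34, adjusted p = 0.00706) and 1.27 with DMSO (SE 0.34, adjusted p = 0.00712). Of 12 of its targets outside the peroxisome, 3 rose and 2 fell with GSK2830371, and 2 rose and 1 fell with DMSO, beside the same shares of all genes. Between GSK2830371 and DMSO 0 of the 12 were called by limma (smallest adjusted p 0.994), so the 2 treatments were not shown to differ in them. *Pdk4*, a kinase that restrains glucose oxidation, had 2.31 with GSK2830371 (SE 0.73, adjusted p = 0.0197) and 2.65 with DMSO (SE 0.73, adjusted p = 0.00931), and the lipid droplet gene *Plin2* had 0.58 with GSK2830371 (SE 0.63, adjusted p = 0.476) and 2.11 with DMSO (SE 0.63, adjusted p = 0.0138). *Plin2* had 7151, 11430.0, 2901, 5528 and 4233 normalised reads in the GSK2830371 kidneys, 45042, 7658, 25129.5, 35448 and 3669.7 in the DMSO kidneys, and 3842, 4351, 2975 and 4030.4 in the control kidneys. The DMSO libraries split, with the 2 Xist-positive ones, replicates 2 and 5, the lowest, and among Xist-positive libraries the DMSO change of *Plin2* was 0.50 (adjusted p = 0.446). Of the fatty acid hydroxylase genes, *Cyp4a14* had 1.68 with GSK2830371 (SE 0.55, adjusted p = 0.0214) and 0.72 with DMSO (SE 0.55, adjusted p = 0.295), *Cyp4a10* had 0.69 with GSK2830371 (SE 0.25, adjusted p = 0.0319) and 0.24 with DMSO (SE 0.25, adjusted p = 0.451) and *Cyp4a31* had -0.77 with GSK2830371 (SE 0.25, adjusted p = 0.0192) and -0.95 with DMSO (SE 0.25, adjusted p = 0.00559). For *Cyp4a14*, DMSO replicate 4 had 4809 normalised reads, under every control, and the other DMSO libraries ranged over 20681 to 39972. Without DMSO replicate 4 the DMSO change of *Cyp4a14* was 1.24 (adjusted p = 0.0159). It was called in 3 of 25 alternative analyses, each of which leaves that library out. The mitochondrial carnitine transferase gene *Cpt2* had -0.65 with GSK2830371 (SE 0.22, adjusted p = 0.0219) and -0.37 with DMSO (SE 0.22, adjusted p = 0.166). Among Xist-positive libraries the DMSO changes of *Eci2* (0.42, adjusted p = 0.168) and *Ppara* (1.26, adjusted p = 0.068) were not called either, and after the GC correction *Tysnd1* was not called with GSK2830371 (-0.47, adjusted p = 0.115) or with DMSO (-0.43, adjusted p = 0.142). The GSK2830371 calls of *Cyp4a10*, *Cyp4a14*, *Cyp4a31*, *Cpt2* and *Eci2* were each lost without at least 1 of the libraries (adjusted p from 0.0508 to 0.119). With sex, as read from *Xist*, as a covariate, *Pdk4* and *Xdh* were called in neither comparison (adjusted p from 0.0542 to 0.0673). *Acbd5* and *Baat* were called in each of the 25 alternative analyses of both comparisons.

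Of the 18 members called for DMSO against control, 13 were called in each of 25 alternative analyses, and of the 16 called for GSK2830371 against control, 12 were. The exceptions were *Abcd3*, *Acaa1a*, *Pex5*, *Pex6* and *Pex11a* with DMSO and *Pex6*, *Pex7*, *Pipox* and *Scp2* with GSK2830371. Among peroxins, *Pex2*, *Pex10*, *Pex14* and *Pex19* were called in all alternatives of both comparisons, and among enzymes *Acox2*, *Amacr*, *Cat*, *Crat*, *Dao*, *Ddo* and *Hsd17b4*.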

How the data were processed

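RNA of whole kidneys from 14 mice was sequenced. RNA integrity numbers were above 7, per the labels' protocols. The mm10 build is named in the submitters' processing notes, with FastQC for read quality, Trimmomatic, STAR and also DESeq2. Which counter, annotation and strand setting they used is not stated there. Exons of further members, among them *Pex3*, *Pex16*, *Acox3*, *Acaa1b* and *Crot*, also overlap genes on the opposite strand.

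The 2 deposited tables hold signal per gene: despite a name that says raw counts, their values are read counts that the authors divided by 1 size factor for each library. Each table holds 9 libraries, with the same 4 controls. In each column 100% of values were whole multiples of the column's step within 0.001, so whole reads were recovered. The control reads had 0 mismatches between tables. Genes in only 1 table (539 and 482) were left out.

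Median-of-ratios size factors over all 14 libraries scaled the reads, and 1 was added before log2. Genes with low counts were dropped by filterByExpr, which left 18810. One fit by group used limma 3.58.1 in R 4.3.3 with a variance trend and robust moderation. Tests were two-sided with Benjamini-Hochberg adjustment over all genes tested, at a threshold of 0.05. Fold changes on this scale understate the change of low genes. The edgeR 4.0.16 quasi-likelihood test and DESeq2 1.42.0 ran on the recovered reads as alternatives, and edgeR called 8496 genes for GSK2830371 against control and 8892 for DMSO against control. The fit was tested on simulated data in which few genes changed, only in the DMSO group and with no GC trend. That test does not cover the scaling where many genes differ, as here. Exon lengths, positions and GC content of the longest transcript were taken from the GENCODE M21 annotation of GRCm38, where 22776 genes (96.2%) had an entry. Promoter windows came from RefSeq and were found for 26 of the 32 members. Figures were drawn with Python 3.11.15 and matplotlib 3.10.9.

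The members and gene lists were chosen with earlier results of these data known, so no p is given over the list. Values of every library are given for the 12 called members with the smallest adjusted p for DMSO against control and for every called peroxin. *Ehhadh* and *Acaa1b* were given likewise after their values were seen. Other members are given by ranges or changes. From the other lists, up to 3 called genes with the smallest p in each direction are named, except that some genes are not reported here.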

Additional observations from a re-analysis of the deposited data

Results flagged for a closer look

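In 5 of 96 pairs of a member and a group, 1 library stood apart from the rest of its group on the log2 scale by Dixon's test, and chance gives about 1 in 20. *Pex26* had its lowest value in replicate 1 of both i-TERTci groups, at 607.49 normalised reads in the GSK2830371 kidney and 593.69 in the DMSO kidney. *Acaa1a* was lowest in GSK2830371 replicate 5, at 3885.4 normalised reads, in a group whose other libraries lay close together. *Hao2* was lowest in GSK2830371 replicate 2, at 3294.5 normalised reads. *Scp2* was highest in control replicate 3, at 26421.0 normalised reads, and the same library was the highest control for *Pex2*, *Pex5*, *Pex7* and *Pex11a*.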

How the results depend on the processing

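No result reversed where it or its alternative was called. The other values gave the following. Among Xist-positive libraries alone, 4 members were called higher and 6021 genes called for DMSO against control, in place of 8 and 9079, and 2 genes for GSK2830371 against DMSO, in place of 0. With sex as a covariate, or at 31 days or fewer on doxycycline, 5 members were called higher for DMSO against control, and at 31 days or fewer 3, in place of 5, for GSK2830371 against control. With DESeq2, 1 gene was called for GSK2830371 against DMSO. No setting called a member there.

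Leaving out 1 library at a time gave 5 to 8 members higher and 10 to 11 lower for DMSO against control, 5 and 10 to 13 for GSK2830371 against control, and 0 for GSK2830371 against DMSO. Over all genes the share called then ran from 40.2% to 48.7% for DMSO against control and from 38.2% to 46% for GSK2830371 against control. The lowest count of 5 arose without control replicate 1, control replicate 2 or DMSO replicate 4. The cause of these moves was not tested, beyond the smaller number of libraries.

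Same-numbered libraries correlated at -0.0605 to 0.335, so the replicate numbers were not taken as pairs. The best-correlated control did carry the same number for GSK2830371 replicates 1, 2, 3 and 4 (0.0455 to 0.101) and DMSO replicates 2 and 4. The best-correlated DMSO library did so for GSK2830371 replicates 1 and 2. For the others it carried another number. With a replicate block 6 members were called higher and 12 lower for GSK2830371 against control, 8 higher and 11 lower for DMSO against control, and 0 for GSK2830371 against DMSO, beside 49.2%, 51% and 0% of all genes. The block gained *Acaa1b* and *Abcd3* for GSK2830371 and *Pipox* for DMSO and lost no member.

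With 4 or 5 kidneys a group, differences within the printed intervals, which are not adjusted for the number of genes, were not excluded.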

Other observations

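*Ppard*, the receptor related to PPAR-alpha, is given here after its values were seen. It ranged over 725 to 1020.0 in the GSK2830371 kidneys, 725 to 1179 in the DMSO kidneys and 2922 to 5232 in the control kidneys. Its log2 change was -2.25 with GSK2830371 (SE 0.19, adjusted p = 4.85e-07) and -2.27 with DMSO (SE 0.19, adjusted p = 3.98e-07). It belongs to a list of 6 regulators of peroxisome genes, in which 1 gene, *Ppara*, rose and 2 fell for GSK2830371 against control, and 1 rose and 4 fell for DMSO against control. Over all genes, 24.3% were called higher and 22.1% lower with GSK2830371, and 25.2% and 23.1% with DMSO. *Havcr1*, the kidney injury molecule gene, ranged over 1138 to 7848 in the GSK2830371 kidneys, 713 to 10306 in the DMSO kidneys and 14048 to 23147 in the control kidneys. The mitochondrial transcript *mt-Nd6*, which lies on the light strand, ranged over 6181 to 17914 in the GSK2830371 kidneys, 6913 to 11895 in the DMSO kidneys and 173 to 658 in the control kidneys, in the opposite direction to the mitochondrial share of reads.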
